A study of Mus musculus with 12 samples.

Results

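The hypothalamic thyroid hormone axis was followed through 9 genes, Trh, Trhr, Trhde, Dio2, Dio3, Thra, Thrb, Slco1c1 and Tshb, out of 27308 gene symbols on the array. The members were all probes that carry one of these symbols, which gave 17 probes, and their normalized log2 signal was read on every array. Hypothalamus RNA of male mice was hybridized to single-color Agilent arrays, with 3 arrays, labelled as replicates, in each of 4 groups. WT mice were wild-type controls that did not swim. KO mice were homozygous Asmt-knockout controls that did not swim. The wild-type exercise mice, called exercised WT here, were wild-type and trained by swimming, and KE mice were Asmt-knockout and trained by swimming. All mice were labelled 6 to 7 weeks old, which the methods give as the age when training began. The knockout line descended from founders with a 20 bp deletion in Asmt, which encodes the last enzyme of melatonin synthesis, and was crossed for 3 generations to C57BL/6 littermates, and the wild-type mice were littermates. The deletion is carried in the whole body. The labels do not say that each replicate was a separate mouse, so p-values measure the spread between these samples.

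Thyrotropin-releasing hormone, made from the Trh precursor in the paraventricular nucleus, drives release of thyrotropin from the pituitary, and thyrotropin drives the thyroid gland. Thyroid hormone enters the brain through transporters such as Slco1c1, is converted to its active form T3 by the deiodinase Dio2 in tanycytes and astrocytes, is inactivated by Dio3, and acts through the nuclear receptors Thra and Thrb. Tshb, the hormone-specific subunit of thyrotropin, is also made in the pars tuberalis, the part of the pituitary that wraps the stalk under the hypothalamus. Thyrotropin of the pars tuberalis is known as a melatonin-controlled signal that acts on Dio2 and Dio3 of tanycytes in seasonal animals. The paper describes the mouse strain it used as deficient in melatonin from birth, with lower Asmt activity. It found no significant effect of the knockout on serum melatonin. It did report higher serum melatonin with swimming, and an interaction of knockout and swimming. Differences between genotypes are therefore not read here as a loss of melatonin, and the part of melatonin was not tested.

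Testing was limited to probes that the scanner called well above background on every array of at least 1 group. Of the 17 member probes, 12 were tested, and each of these was well above background on all 12 arrays. The other 5 were the second probes of Trhr, Trhde and Tshb, the fourth probe of Thra and the only probe of Dio3. Values are log2 signals, quantile-normalized over the 12 arrays, and a difference is a difference of mean log2 signals with its SE from limma. Probes of a gene are numbered in the order used here, and levels of different probes were not compared. In bulk RNA, fewer cells of a type and less RNA per cell cannot be told apart.

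Asmt, the targeted gene, was well above background on 0 of 12 arrays, so its signal does not check the genotype labels. The arrays lay on 2 slides. The WT arrays and KO replicates 1 and 2 were on slide 1, and KO replicate 3 and all exercised WT and KE arrays were on slide 2. Only KO therefore links the slides, and for exercised WT versus WT the slide and the swimming cannot be told apart. Of 9 markers of hypothalamic neurons, 8 were well above background on all arrays and the other on some. So were all 5 markers of striatum, all 6 of thalamus and habenula, all 6 of choroid plexus and 3 of 5 of cortex and hippocampus. Detection alone therefore does not show how the tissue was cut. On 4 arrays, KO replicates 1 and 2, exercised WT replicate 3 and KE replicate 1, the pituitary genes Cga and Pitx1 were both well above background; values without these arrays are given for the member differences with an unadjusted p under 0.05 that lose it there, and for the pathway genes together. That set was chosen after the data were seen. Without it KO was replicate 3 alone, on slide 2, and all WT arrays were on slide 1. In KO versus WT the knockout and the slide then cannot be told apart.

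**Figure D1:**
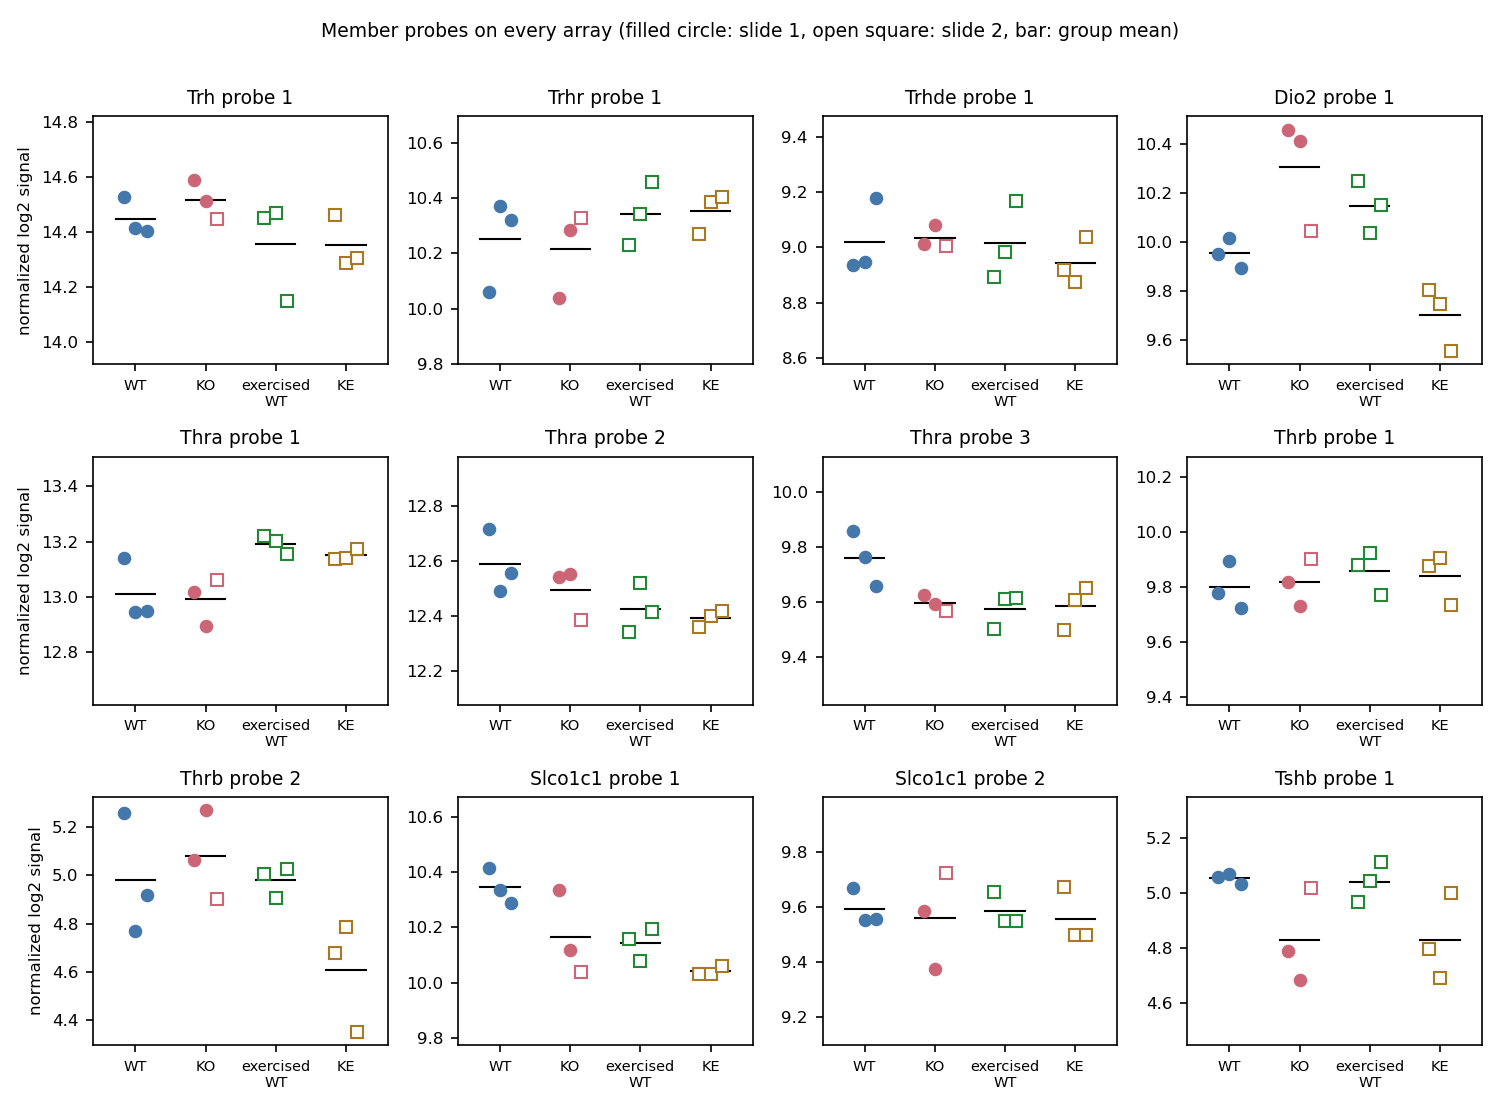
Normalized log2 signal of the 12 tested member probes on each array, by group (WT, KO, exercised WT, KE; 3 arrays each), with filled circles for slide 1, open squares for slide 2 and a bar at the group mean. The KE arrays were the 3 lowest for Dio2, between 9.55 and 9.80, and KO replicates 1 and 2 were the highest.

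The brain's capacity to make and remove T3 is set by the deiodinases, and Dio2 had the largest fitted differences of the tested members in each comparison except exercised WT versus WT. In WT mice its log2 signal was 9.95, 10.01 and 9.89. In KO mice it was 10.46, 10.41 and 10.04. In exercised WT mice it was 10.25, 10.04 and 10.15, and in KE mice it was 9.80, 9.74 and 9.55. Every KO and every exercised WT array lay above every WT array, and every KE array lay below every array of the other groups.

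Dio2 was 0.35 ± 0.11 (SE, n = 3 per group) log2 units higher in KO than in WT mice, a 1.28-fold difference, with an unadjusted p of 0.0112 and an adjusted p of 0.846 in limma. KE was 0.61 ± 0.11 lower than KO, which is 1.52-fold, with an unadjusted p of 0.000332 and an adjusted p of 0.0981. KE was also 0.45 ± 0.11 lower than exercised WT, 1.36-fold, with an unadjusted p of 0.00283 and an adjusted p of 0.576. None of the 3 differences passed the adjusted threshold of 0.05 over 35230 probes. In wild-type mice the difference between exercised WT and WT was 0.19 ± 0.11 in the higher direction, with an unadjusted p of 0.121.

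The mean of Dio2 was higher in swimming than in resting wild-type mice, and lower in swimming than in resting knockout mice. The interaction, the KE minus KO difference less the exercised WT minus WT difference, was -0.80 ± 0.16, with an unadjusted p of 0.000563 and an adjusted p of 0.477 in limma. It ranked 34 by p among the 35230 probes. With slide as a block, which KO replicate 3 alone informs, the interaction was -0.93 ± 0.12, with an unadjusted p of 2.49e-05 and an adjusted p of 0.192. The KO versus WT difference was then 0.48 ± 0.09 and the KE versus KO difference -0.34 ± 0.11, with unadjusted p of 0.000374 and 0.0125. The block takes up KO replicate 3. For the interaction and KO versus WT the fit that left out this array therefore gave the same values. The exercised WT versus WT difference became 0.58 ± 0.14 with an unadjusted p of 0.00250, but it has no within-slide value. KE and exercised WT lay on the same slide, where the difference fitted on that slide alone was -0.45 ± 0.09 with an unadjusted p of 0.00253 and an adjusted p of 0.332 in limma.

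KO replicate 3, at 10.04, was 0.39 log2 units below the mean of KO replicates 1 and 2, and it differed from them both in slide and in the pituitary genes. Without the 4 arrays that held Cga and Pitx1, the KO versus WT difference of Dio2 rested on KO replicate 3 and was 0.090, with an unadjusted p of 0.483. Without the same arrays KE versus KO was -0.39, KE versus exercised WT was -0.49 and the interaction was -0.58, with unadjusted p of 0.0222, 0.00346 and 0.0111. In these fits KO replicate 3 stood alone for its group and was assumed to vary like the others. KO versus WT and the interaction then also held the difference between the slides. Without KO replicate 3 alone, KE versus KO was -0.74 with an adjusted p of 0.000672 in limma, and 8589 probes of all kinds were then called, with KE and KO then on different slides.

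Markers of cells known to hold Dio2 were summed on the linear scale. The summed signal of 7 tanycyte markers, 6 of them well above background on all arrays, was 5705 to 6613 in WT, 6349 to 6654 in KO, 6750 to 10527 in exercised WT and 5985 to 6689 in KE mice. The KE range overlapped the WT and KO ranges in this sum, and the high exercised WT value came from replicate 3, where Crym, a T3-binding protein that is also a tanycyte marker, was at 12.34. Read gene by gene, 6 of the 7 tanycyte markers (Rax, Vim, Gpr50, Crym, Adm and Lhx2) had an interaction below 0, the sign of that of Dio2. In KE versus KO 6 of the 7 were lower and Vim was higher. In KE versus exercised WT 4 of the 7 were lower, and Rax, Col23a1 and Vim were higher. The median of the 7 was -0.40 in the interaction, -0.27 in KE versus KO and -0.25 in KE versus exercised WT, beside -0.0070, -0.038 and -0.0093 over all probes. Of these markers Lhx2 had an unadjusted p under 0.05 in the interaction, at -0.40 with an unadjusted p of 0.0321 and an adjusted p of 0.601 in limma. In KO versus WT 1 of the 7 was lower, and the median was 0.15, beside -0.012 over all probes. Without the 4 arrays that held Cga and Pitx1, 6 of the 7 were lower in the interaction, 6 in KE versus KO and 7 in KE versus exercised WT. The medians were then -0.27, -0.24 and -0.27. In KO versus WT, which then rested on KO replicate 3, 4 of the 7 were lower and the median was -0.088. The sum of 6 astrocyte markers, all above background on every array, was 141537 to 143589 in WT, 123705 to 152292 in KO, 127995 to 135817 in exercised WT and 121049 to 128169 in KE mice. The astrocyte sum of KO replicate 3 was 123705, beside 145765 and 152292 for KO replicates 1 and 2. The KE astrocyte sums were all below the WT sums, as Dio2 was. The exercised WT astrocyte sums were also all below the WT sums, while Dio2 was higher there than in WT. These sums rest mostly on Aldoc, the brightest of the 6, with means of 16.70 in WT, 16.58 in exercised WT and 16.49 in KE mice. Gfap and Gja1 had higher means in KE than in WT mice, at 12.31 against 12.25 and 10.75 against 10.60. Aqp4, Aldh1l1 and Slc1a3 were lower in KE, as was Aldoc. The part of both marker lists in the Dio2 values was not tested.

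Dio3, the deiodinase that inactivates T3, was near the limit of detection. It was well above background on KO replicate 2, at 4.33, and on exercised WT replicate 3, at 4.94, and lay between 2.58 and 4.01 on the other 10 arrays. Both arrays were among the 4 that held Cga and Pitx1. No group had Dio3 above background on all of its arrays, so no fold is given.

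The receptors for T3 gave small differences that depended on the probe. Thrb, which mediates feedback of thyroid hormone on Trh, had 2 tested probes. At the first, the signal lay between 9.72 and 9.92 on all arrays and the groups overlapped in every comparison, with differences of at most 0.060 in size. The second probe was dim. Its log2 signal was 5.26, 4.77 and 4.92 in WT mice, 5.06, 5.27 and 4.90 in KO mice, 5.01, 4.91 and 5.03 in exercised WT mice, and 4.68, 4.79 and 4.35 in KE mice. All KE arrays lay below all KO and all exercised WT arrays, and KE overlapped WT.

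At this second Thrb probe KE was 0.47 ± 0.15 lower than KO, with an unadjusted p of 0.00988 and an adjusted p of 0.163 in limma. KE was 0.37 ± 0.15 lower than exercised WT, with an unadjusted p of 0.0306 and an adjusted p of 0.719. The interaction was -0.47 ± 0.21, with an unadjusted p of 0.0492 and an adjusted p of 0.643. With slide as a block the KE versus KO difference was -0.29 ± 0.20 with an unadjusted p of 0.179, and without the 4 arrays that held Cga and Pitx1 it was -0.33 with an unadjusted p of 0.230. Leaving those arrays out gave -0.39 in KE versus exercised WT and -0.31 in the interaction, with unadjusted p of 0.106 and 0.361. At this dim probe the values also moved with scaling and background correction. With 75th percentile scaling KE versus KO, KE versus exercised WT and the interaction were -0.34, -0.25 and -0.31, with unadjusted p of 0.0511, 0.134 and 0.182. With normexp they were -0.15, -0.12 and -0.15, with unadjusted p of 0.0358, 0.0892 and 0.115. Both probes lie on chromosome 14 (mm9), the first at chr14:18868800-18868859 and the second at chr14:18866221-18866280. The difference between the probes was not tested.

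Thra, the receptor that most brain cells use, had 3 tested probes. Without a slide block, probe 1 had the other sign than probes 2 and 3 in both swimming versus resting comparisons. Over the 12 arrays probe 1 correlated at r = -0.38 with probe 2 and -0.23 with probe 3. Probes 2 and 3, shown here, correlated at r = 0.79, given as a description of arrays that share slides. Probe 3 crosses an intron, its 60 bases spanning 807 bases of chromosome 11 (chr11:98617475-98618281, mm9), while probe 2 lies in 1 stretch (chr11:98625642-98625701).
Thra probe 2: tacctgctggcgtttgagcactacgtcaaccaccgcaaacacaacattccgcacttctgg
Thra probe 3: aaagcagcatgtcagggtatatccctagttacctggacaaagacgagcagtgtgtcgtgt

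At the first Thra probe the log2 signal was 13.14, 12.94 and 12.95 in WT, 13.02, 12.90 and 13.06 in KO, 13.22, 13.20 and 13.15 in exercised WT, and 13.14, 13.14 and 13.17 in KE mice. Swimming mice lay above resting mice of their genotype with no overlap, by 0.18 ± 0.07 in wild-type and 0.16 ± 0.07 in knockout mice, with unadjusted p of 0.0221 and 0.0393 and adjusted p of 0.138 and 0.218 in limma. With slide as a block these became 0.077 and 0.089, with unadjusted p of 0.515 and 0.342. Without the 4 arrays that held Cga and Pitx1 they were 0.20 and 0.096, with unadjusted p of 0.0420 and 0.394.

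Thra probe 3, shown above, was 9.86, 9.76 and 9.66 in WT, 9.62, 9.59 and 9.57 in KO, 9.50, 9.61 and 9.62 in exercised WT, and 9.50, 9.61 and 9.65 in KE mice. WT stood above KO and exercised WT with no overlap, by 0.16 ± 0.07 and 0.18 ± 0.07, with unadjusted p of 0.0334 and 0.0205 and adjusted p of 0.846 and 0.134 in limma. The KO versus WT difference without the 4 arrays that held Cga and Pitx1 was -0.19, with an unadjusted p of 0.0992. When slide was a block, the KO and the exercised WT differences from WT were -0.15 and -0.14, with unadjusted p of 0.0720 and 0.267. At the second probe exercised WT was 0.16 ± 0.08 lower than WT, with an unadjusted p of 0.0581, and the groups overlapped. Averaged over the probes of the gene, exercised WT versus WT was -0.055 with an unadjusted p of 0.369, so the direction at the first probe was not that of the mean.

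Slco1c1, the transporter of thyroxine at the blood-brain barrier and in astrocytes, also had 2 tested probes that differed. The first is shown because it carries the differences and crosses an intron. It lies at chr6:141511731-141513094 (mm9), a span of 1364 bases.
Slco1c1 probe 1: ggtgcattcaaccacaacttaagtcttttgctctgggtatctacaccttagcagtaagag

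At this probe the log2 signal was 10.42, 10.34 and 10.29 in WT, 10.33, 10.12 and 10.04 in KO, 10.16, 10.08 and 10.19 in exercised WT, and 10.03, 10.03 and 10.06 in KE mice. The WT arrays were among the 4 highest, and KE arrays lay below all exercised WT arrays. The exercised WT group was 0.20 ± 0.08 lower than WT, with no overlap, an unadjusted p of 0.0230 and an adjusted p of 0.140 in limma. KO was 0.18 ± 0.08 lower than WT, with overlap, an unadjusted p of 0.0371 and an adjusted p of 0.846. Under the slide block, these were -0.019 and -0.12, with unadjusted p of 0.875 and 0.129. Without the 4 arrays that held Cga and Pitx1 the KO versus WT difference rested on KO replicate 3 and was -0.31. That array was on slide 2 and all WT arrays on slide 1, so knockout and slide cannot be told apart there. Over all arrays the signal of this probe was 0.21 lower on slide 2 than on slide 1. At the second probe, which lay between 9.37 and 9.72 on all arrays, every comparison overlapped and no difference was over 0.031 in size. With slide as a block exercised WT versus WT at this probe was -0.25, and without the 4 arrays that held Cga and Pitx1 KE versus KO was -0.22, with unadjusted p of 0.0976 and 0.0452. The summed signal of 6 endothelial markers was 22436 to 24279 in WT, 22926 to 24969 in KO, 21244 to 23896 in exercised WT and 22052 to 22624 in KE mice, and its part in the Slco1c1 values was not tested.

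**Figure D2:**
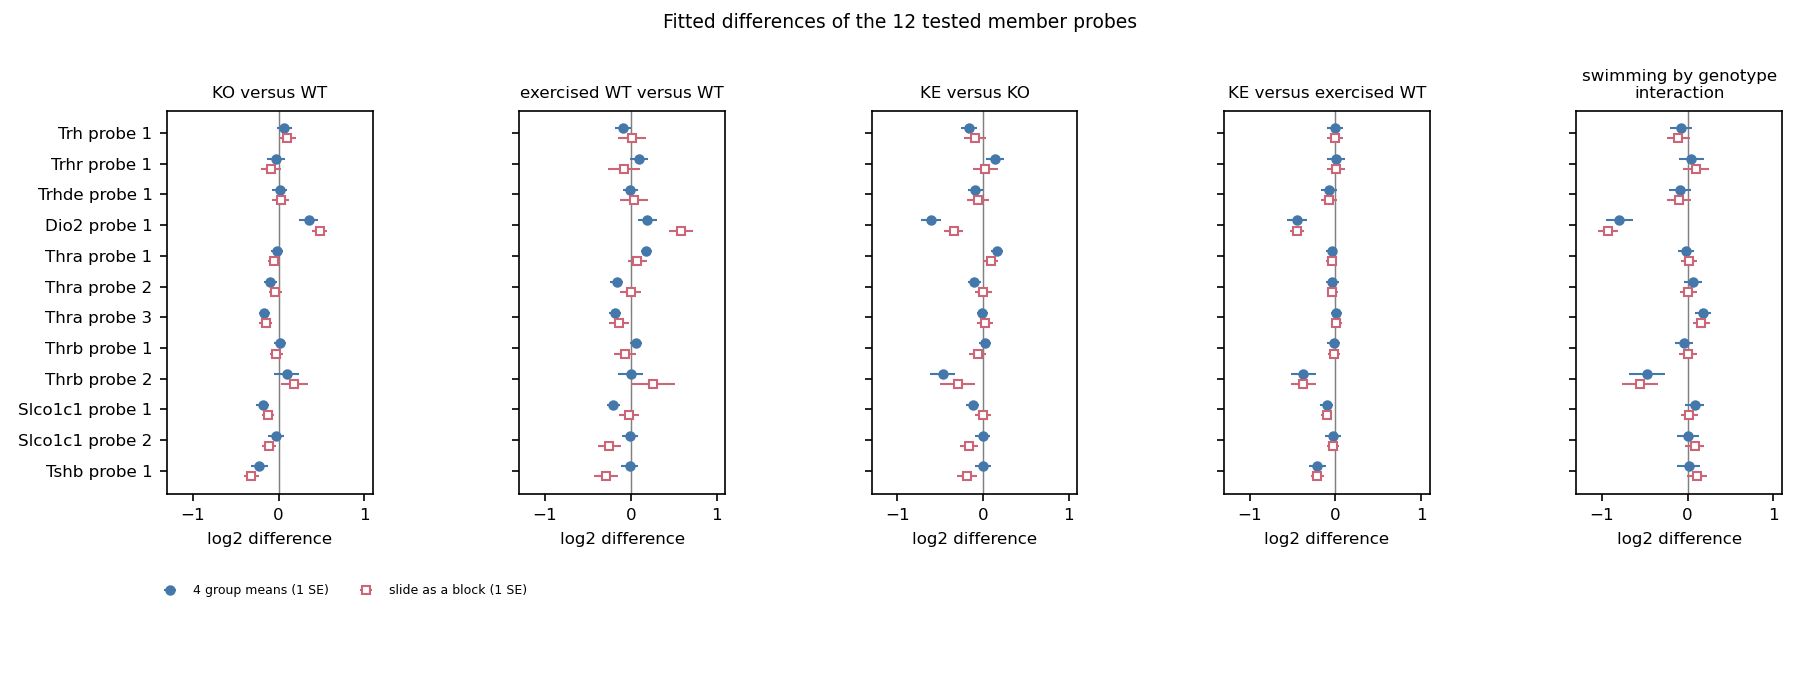
Fitted log2 differences of the 12 tested member probes in 5 comparisons; filled circles are the fit of 4 group means, open squares the fit with slide as a block, and lines are 1 SE. Dio2 stands furthest from 0 in KO versus WT, KE versus KO, KE versus exercised WT and the interaction, and the Thra probe 1 and Slco1c1 probe 1 differences of exercised WT versus WT move toward 0 when slide enters.

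For the releasing hormone, its receptor and its peptidase no difference had an unadjusted p under 0.05. Trh was 14.53, 14.41 and 14.40 in WT, 14.59, 14.51 and 14.45 in KO, 14.45, 14.47 and 14.15 in exercised WT, and 14.46, 14.29 and 14.31 in KE mice. The groups overlapped in all 4 comparisons. The lowest value was that of exercised WT replicate 3. The KO versus WT difference was 0.069, with a 95% interval of -0.13 to 0.27, and the KE versus KO difference was -0.17, with an interval of -0.37 to 0.039 and an unadjusted p of 0.101 in limma. A difference of up to these bounds was not excluded by 3 arrays per group.

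Trhr, a receptor of thyrotropin-releasing hormone, lay between 10.04 and 10.46 at its first probe, and Trhde, the membrane enzyme that degrades the hormone, between 8.87 and 9.18. For Trhr the differences ran from -0.034 in KO versus WT to 0.14 in KE versus KO, and for Trhde from -0.091 in KE versus KO to 0.012 in KO versus WT. All comparisons overlapped. Over the 12 arrays Trh and Trhr correlated at r = -0.82, given as a description of arrays that share slides. The second probes of both Trhr and Trhde were well above background on 0 arrays.

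Tshb had 2 probes that read opposite strands. RefSeq (GRCm38.p6) places Tshb on the minus strand, and the order of coordinates matched the strand of the gene for 32621 of 32852 probes that could be compared, or 99.3%. The coordinates of the second Tshb probe run along the gene. Those of the first run the other way (chr3:102583248-102583307, mm9). The sequence of the first is shown because its value has another meaning than a level of the gene.
Tshb probe 1, opposite strand: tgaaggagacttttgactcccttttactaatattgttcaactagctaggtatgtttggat

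At the probe along the gene, Tshb was well above background on 4 arrays. It was 7.75 on KO replicate 1, 6.89 on KO replicate 2, 6.98 on exercised WT replicate 3 and 7.26 on KE replicate 1. On the other 8 arrays it lay between 1.91 and 3.04 and was not well above background. The 4 arrays came from 3 groups, and no WT array was among them. Because no group had 3 such arrays, the probe was not tested.

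Some but not all other listed pituitary transcripts were high on the same 4 arrays. Cga, the subunit that thyrotropin shares with the gonadotropins, was 11.51, 10.58, 10.72 and 10.87 on these arrays in the same order. It was also well above background on WT replicate 2, at 5.90, and lay between 1.85 and 2.83 on the other arrays. WT replicate 2, where Pitx1 was not well above background, stays in the fits without the 4 arrays. Pitx1, a pituitary transcription factor, was 8.87, 8.27, 8.23 and 8.75, against 1.82 to 3.94 elsewhere. Fshb, a gonadotropin subunit, was 7.12, 4.78, 5.72 and 5.73, and was also above background on WT replicate 2, at 4.92.

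Of 9 listed genes of the anterior pituitary and pars tuberalis, with Tshb read at the probe along the gene, 2 were well above background on all arrays, and neither was higher on the 4. Lhb, another gonadotropin subunit, was 7.34 to 7.59 on the 4 arrays and 7.13 to 7.66 on the others, and Chrna4, a nicotinic receptor subunit, was 8.78 to 9.06 against 8.76 to 9.32. The summed linear signal of the 9 genes was 604 to 912 in WT, 749.6 to 4404 in KO, 679 to 2899 in exercised WT and 778 to 3182 in KE mice. Gh, the growth hormone gene, and Pou1f1, the factor that somatotrophs, lactotrophs and thyrotrophs of the pars distalis need, were well above background on 0 of 12 arrays. Prl, the prolactin gene, was above background on KE replicate 1, at 5.61, and on 2 arrays outside the 4, KE replicate 2 at 4.60 and exercised WT replicate 2 at 4.28. Pars tuberalis cells are known to make Cga and Tshb with little Pou1f1. Which tissue these transcripts came from was not tested. KO replicates 1 and 2 were both the arrays with the highest Tshb among KO and those with the highest Dio2, while in KE mice replicate 1 had Tshb and a Dio2 of 9.80, against 9.74 and 9.55 without it, and exercised WT replicate 3 had Tshb and a Dio2 of 10.15, against 10.25 and 10.04.

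**Figure D3:**
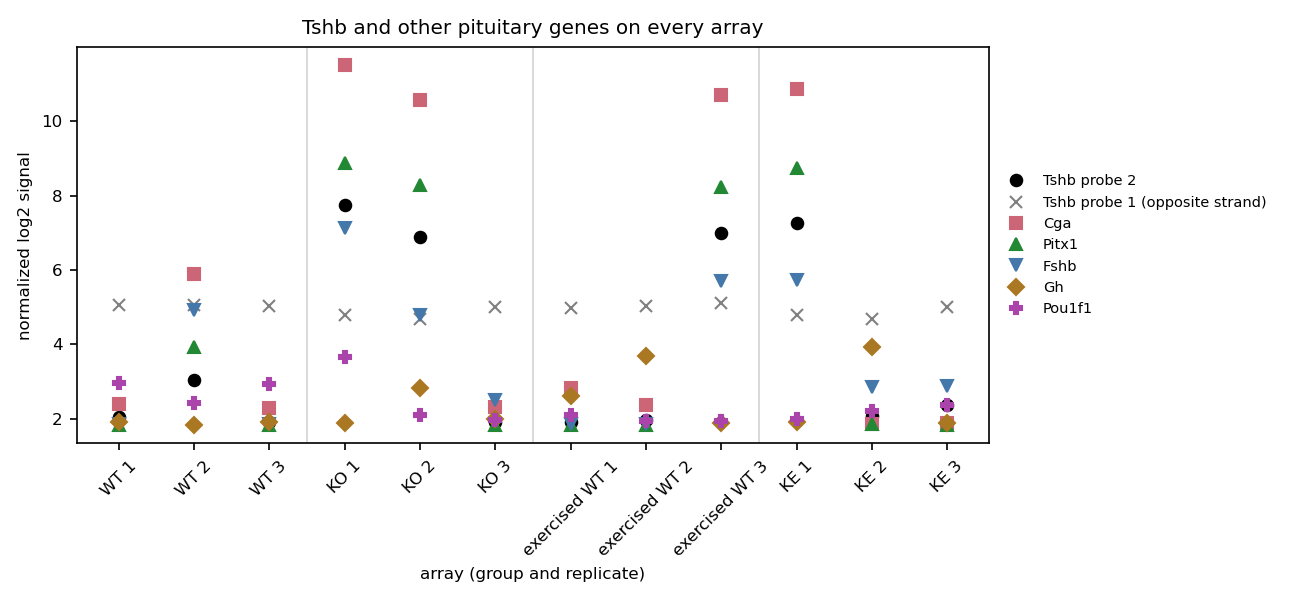
Normalized log2 signal of both Tshb probes and of Cga, Pitx1, Fshb, Gh and Pou1f1 on each of the 12 arrays, in the order WT, KO, exercised WT, KE. Tshb probe 2, Cga and Pitx1 are high together on KO 1, KO 2, exercised WT 3 and KE 1, while Gh and Pou1f1 stay low on all arrays.

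The opposite-strand probe was not high on these arrays. It was 5.06, 5.07 and 5.03 in WT, 4.79, 4.68 and 5.02 in KO, 4.97, 5.04 and 5.11 in exercised WT, and 4.80, 4.69 and 5.0 in KE mice. KO lay below WT with no overlap, by 0.22 ± 0.10, with an unadjusted p of 0.0463 and an adjusted p of 0.846 in limma. With slide as a block it was -0.32, with an unadjusted p of 0.00582 in limma, and without the 4 arrays it was -0.035, resting on KO replicate 3. The probe was dim, and with normexp the difference was -0.084, with an unadjusted p of 0.157 in limma. Its unadjusted p stayed under 0.05 in 10 alternatives and did not in 13. The signal of this probe is not a level of Tshb mRNA.

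Counted over all 12 tested probes, 4 had an unadjusted p under 0.05 in KO versus WT, where 5.47% of all tested probes did. In exercised WT versus WT it was 3 of 12 against 25.9% of all probes. For KE versus KO it was 3 of 12 against 21.1%, for KE versus exercised WT 2 of 12 against 6.71%, and in the interaction 2 of 12 against 7.76%. The shares in exercised WT versus WT and KE versus KO were near the background. In the same order, groups did not overlap at 3, 4, 3 and 3 member probes in the 4 comparisons, against 8.63%, 37.6%, 21.5% and 19.6% of all probes. The median difference of the members was -0.025, -0.0063, -0.050, -0.038 and -0.0099 in the 5 comparisons, beside -0.012, -0.043, -0.038, -0.0093 and -0.0070 over all probes. The 4 probes counted in KO versus WT include the opposite-strand Tshb probe, which is not a level of Tshb mRNA. That probe is among the 12 in every count of member probes. Some of the 12 share a gene, so they are not 12 separate genes.

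No member probe passed the adjusted threshold in any of the 5 comparisons, where 7 of all 35230 probes (0.0199%) did in KE versus KO and 0 in each of the others, and none met the study's screening criterion of a 2-fold change with p of at most 0.05, which 0.227%, 2.19%, 1.21%, 0.250% and 0.602% of all probes met. With the slide in the model, 2, 1, 1, 3 and 2 of the 12 probes had an unadjusted p under 0.05, against 5.48%, 6.17%, 9.06%, 10.3% and 10.9% of all probes. KO serves in KO versus WT and in KE versus KO, and WT in KO versus WT and in exercised WT versus WT, so these comparisons share arrays.

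The other genes of the pathway were taken from lists of 46 genes, of which 40 were tested. With an unadjusted p under 0.05 KO versus WT held 3, exercised WT versus WT held 10, KE versus KO held 12, KE versus exercised WT held 3 and the interaction held 4, and none passed after adjustment. As shares these were 7.5%, 25%, 30.0%, 7.5% and 10.0%, beside the backgrounds given above. With slide as a block the counts were 5, 3, 2, 4 and 5.

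Of 7 genes for transport and binding, Slco1a4, an organic anion transporter at brain endothelium, had the smallest p of any listed gene in the interaction. It was 9.88, 9.67 and 9.69 in WT, 9.53, 9.46 and 9.43 in KO, 9.48, 9.56 and 9.66 in exercised WT, and 9.65, 9.72 and 9.91 in KE mice. The KO arrays lay below all WT and all KE arrays. KO was 0.28 ± 0.09 lower than WT (unadjusted p = 0.00906, limma), KE was 0.29 ± 0.09 higher than KO (unadjusted p = 0.00743, limma), and the interaction was 0.47 ± 0.12, with an unadjusted p of 0.00305 and an adjusted p of 0.478. KE was also 0.19 ± 0.09 higher than exercised WT (unadjusted p = 0.0468, limma). The sign of the interaction was the opposite of that of Dio2. Once the slide was a block the interaction was 0.45 ± 0.13.

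Slc7a5, an amino acid transporter that also carries thyroid hormone, was 0.58 ± 0.16 higher in exercised WT than in WT and 0.52 ± 0.16 higher in KE than in KO, with unadjusted p of 0.00498 and 0.00879. In the fit with a slide block these were 0.027 and 0.16. Crym was 1.06 ± 0.45 lower in KE than in exercised WT, with an unadjusted p of 0.0423 in limma; exercised WT replicate 3 was at 12.34, beside 10.22 and 10.65 on the other exercised WT arrays. On the same array the sum of 5 striatal markers was 16106, against 8460 to 11140 over the WT, KO and KE arrays; its part in the Crym value was not tested.

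Of 10 genes known to respond to thyroid hormone in brain, Klf9, a transcription factor gene that T3 induces, had an unadjusted p under 0.05 in KE versus exercised WT and in the interaction. It was 11.96, 12.01 and 12.01 in WT, 12.09, 12.43 and 11.99 in KO, 12.02, 12.27 and 12.38 in exercised WT, and 11.84, 11.92 and 11.96 in KE mice. All KE arrays lay below all KO and all exercised WT arrays, though KE replicate 3 lay close to KO replicate 3. KE was 0.32 ± 0.12 lower than exercised WT, with an unadjusted p of 0.0229 and an adjusted p of 0.698 in limma. The interaction was -0.49 ± 0.17, with an unadjusted p of 0.0144 and an adjusted p of 0.563, and -0.59 ± 0.16 with slide as a block. Without the 4 arrays that held Cga and Pitx1 these 2 differences were -0.21 and -0.20, with unadjusted p of 0.0672 and 0.207.

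Hr, another direct target of the receptors, and Nrgn, a synaptic calmodulin-binding protein, had no unadjusted p under 0.05 in any comparison. Shh had an interaction of -0.34 ± 0.15 with an unadjusted p of 0.0442 and was 0.31 ± 0.10 higher in exercised WT than in WT. Flywch2 was 0.23 ± 0.07 lower in exercised WT than in WT, and Camk4, a calcium-dependent kinase, was 0.38 ± 0.12 higher in KE than in KO, with unadjusted p of 0.00729 and 0.00921. After the slide was entered as a block the exercised WT versus WT differences of Shh and Flywch2 were 0.045 and -0.026, and that of Camk4 in KE versus KO was 0.19. The list median in the interaction was -0.068, beside -0.0070 over all probes.

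**Figure D4:**
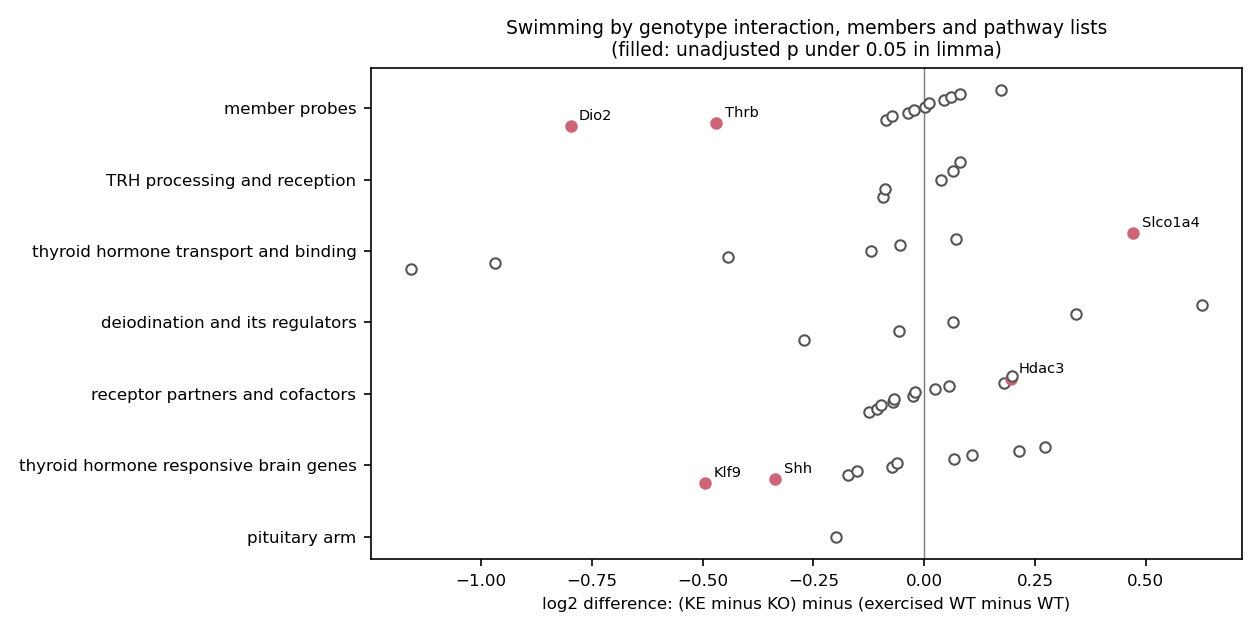
Log2 interaction, the KE minus KO difference less the exercised WT minus WT difference, of the 12 member probes and of the tested genes in 6 pathway lists; filled points had an unadjusted p under 0.05 in limma and are named. Dio2 at -0.80, Klf9 at -0.49 and Thrb probe 2 at -0.47 lie to the left of 0, and Slco1a4 at 0.47 to the right.

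Among 5 tested genes of deiodination, Secisbp2, which selenoprotein synthesis needs and on which the deiodinases therefore depend, was 9.46, 9.38 and 9.22 in KO and 9.12, 8.99 and 8.78 in KE mice. KE was lower on every array, by 0.39 ± 0.12, with an unadjusted p of 0.00805 and an adjusted p of 0.161 in limma, and by 0.26 with slide as a block, with an unadjusted p of 0.145. Wsb1, part of the ligase that marks Dio2 for degradation, was 0.30 ± 0.12 lower in KO and 0.36 ± 0.12 lower in exercised WT than in WT, with unadjusted p of 0.0280 and 0.0102. With a block for slide these were -0.15 and 0.062, with unadjusted p of 0.0889 and 0.645, and KE versus KO, at -0.023 without the block, was 0.26 with an unadjusted p of 0.0308. Usp33, which removes ubiquitin from Dio2, had no unadjusted p under 0.05, and Dio1, the deiodinase of liver and kidney, was above background on 1 array.

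Among 12 receptor partners and cofactors, Hdac3, the deacetylase of the receptor corepressor complex, was 0.11 ± 0.05 lower in KO than in WT and 0.20 ± 0.06 in the interaction, with unadjusted p of 0.0349 and 0.0128. Rxra, the heterodimer partner of the thyroid hormone receptors, was 0.25 ± 0.08 lower in KE than in KO (unadjusted p = 0.0138, limma) and -0.067 with slide as a block. Of 5 tested genes that process or bind the releasing hormone, Pcsk2 and Pam, enzymes that mature peptide hormones, were 0.22 ± 0.08 and 0.34 ± 0.12 lower in exercised WT than in WT, with unadjusted p of 0.0167 and 0.0166. Pgpep1, a pyroglutamyl peptidase, was 0.21 ± 0.07 lower in KE than in KO, with an unadjusted p of 0.0146. Given a slide block these 3 were -0.10, 0.042 and -0.12.

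Without the 4 arrays that held Cga and Pitx1, the pathway lists held 7, 10, 2, 4 and 6 genes with an unadjusted p under 0.05 in the 5 comparisons, where 28.5%, 28.4%, 8.15%, 7.57% and 22.5% of all probes did. Of the genes counted with all arrays, 2 of 3, 6 of 10, 2 of 12, 1 of 3 and 2 of 4 kept their sign and an unadjusted p under 0.05. Slco1a4 was among those kept, with an interaction of 0.62 and an unadjusted p of 0.00902, as was Shh, at -0.56 with an unadjusted p of 0.0280. Secisbp2 in KE versus KO was -0.34, with an unadjusted p of 0.0295. Wsb1 was -0.58 in KO versus WT. In exercised WT versus WT it was -0.36, with an unadjusted p of 0.00626 in limma. In all fits of this paragraph KO was replicate 3 alone, on slide 2, and the WT arrays were on slide 1. Knockout and slide therefore cannot be told apart in KO versus WT, and the interaction holds the slide too. Crym in KE versus exercised WT became -0.47, with an unadjusted p of 0.178. For Hdac3, KO versus WT was -0.081 and the interaction 0.14, with unadjusted p of 0.280 and 0.162. In KE versus KO, Slc7a5 was 0.13, Camk4 0.17, Rxra -0.096 and Pgpep1 -0.14, with unadjusted p of 0.473, 0.116, 0.276 and 0.109. Pcsk2 in exercised WT versus WT was -0.19, with an unadjusted p of 0.0660.

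The genes whose pattern over the 12 arrays was most like that of each member, by Pearson's r at the brightest tested probe, were listed as a description. For Dio2 they were Surf4, Slc15a4 and Fbxo28, each at r = 0.93. For Trh they were Taf1c at 0.96, Asxl2 at 0.95 and Setd8 at 0.93, and for Trhr they were Zfp867 at 0.95 and Lcmt2 and Sh2b3 at 0.93. For Trhde they were Ptgs1 at 0.94, Gabrb2 at 0.93 and D830012I24Rik at 0.92. Among the members themselves, Dio2 correlated with Thrb probe 2 at r = 0.77.

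For Thra the most alike were Fam179b at 0.93, Xkr6 and Kpna1 at 0.92, and for Thrb they were Tex9 at 0.94, 6530437J22Rik at 0.91 and Prrc2c at 0.90. For Slco1c1 they were Inpp5f at 0.95, Rad18 at 0.94 and Fras1 at 0.93. Inpp5f was 0.66 and Slco1c1 0.21 log2 units lower on slide 2 than on slide 1, so that the likeness and the slide moved together; the part of the slide was not tested. For the opposite-strand Tshb probe they were Slc5a10 at 0.91 and Zfp81 and Nudt12 at 0.89.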

How the data were processed

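For each array the authors deposited scanner files holding the intensity of every spot from Agilent Feature Extraction 10.7.1.1 after background subtraction, and a table of log2 values that GeneSpring had quantile-normalized. The deposited lists of the authors' comparisons hold fold changes and p-values, and these and 24 columns of signal and 60 columns of flags per sample were not used. From the scanner output, control and outlier spots were dropped, log2 signals were averaged per probe and quantile-normalized with limma 3.58.1 in R 4.3.3, and 35230 of 56605 probes passed the filter. On each array 61.6% to 67.9% of spots stood well above background, and 0 were saturated. Group means over all 12 arrays were fitted with empirical Bayes moderation, with Benjamini-Hochberg adjustment over all tested probes. The fit was tested on simulated data with planted changes larger than any member difference reported here. The noise there was the same for every probe and held no slide effect, so recovery of smaller differences was not tested. Positions were read from the annotation of the array (build mm9). Precision is limited by the number of arrays, 3 in each group.

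All member probes were named. A listed pathway gene, read at its brightest tested probe, was named when its unadjusted p was under 0.05, up to 6 per comparison by smallest p, and the 3 most similar genes were named per member. Hr, Nrgn, Usp33, Dio1 and the pituitary genes fall outside that rule and were chosen after their values were seen. Some listed genes and probe sequences are not reported here. Members and lists were chosen with earlier results of these data known. The alternatives were scaling by the 75th percentile, normexp with an offset of 50, the authors' table, other detection filters, slide and replicate blocks, the methods' t-test, averaging probes per gene, fits within a slide and leaving out each array.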

Additional observations from a re-analysis of the deposited data

Results flagged for a closer look

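The differences between swimming and resting mice were not alike in the 2 genotypes for 2 member probes, by the unadjusted test of the interaction in limma. For Dio2 the interaction was -0.80, and for the second Thrb probe it was -0.47. Neither passed after adjustment over all probes (adjusted p = 0.477 and 0.643). The values on every array are given above. Dio2 kept its direction and an unadjusted p under 0.05 in all 21 alternatives that gave an interaction, and the Thrb probe in 7 of 21. Slide as a block and leaving out KO replicate 3 gave the same interaction values, so these are not 21 separate checks.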

How the results depend on the processing

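Of 12 member probes, the number with an unadjusted p under 0.05 was 4 for KO versus WT, 3 for exercised WT versus WT, 3 for KE versus KO, 2 for KE versus exercised WT and 2 for the interaction. For KO versus WT it was 2 with slide as a block, 2 on slide 1 alone, 2 with probes averaged per gene, 0 by the methods' t-test and 1 without the 4 arrays with Cga and Pitx1. For exercised WT versus WT it was 1 with slide as a block, 1 by the methods' t-test and 0 with probes averaged per gene. For KE versus KO it was 1 with slide as a block, 1 on slide 2 alone, 1 with 75th percentile scaling and 5 with the replicate number as a block. For KE versus exercised WT it was 1 with 75th percentile scaling, 1 with normexp and 1 without the 4 arrays. For the interaction it was 1 with 75th percentile scaling, normexp, no detection filter, probes averaged per gene or the 4 arrays left out. Leaving out each array in turn gave 1 to 4 for KO versus WT, 1 to 5 for exercised WT versus WT, 2 to 4 for KE versus KO, 1 to 3 for KE versus exercised WT and 1 to 2 for the interaction. The cause of these shifts was not tested. The share of all probes with an unadjusted p under 0.05 moved with the setting too. It is given above for slide as a block and for the fit without the 4 arrays, and not for the other settings. The 5 in exercised WT versus WT came without KO replicate 3, where 6333 of all probes passed the adjusted threshold. These counts therefore do not show whether the members changed more than all probes did. Of member differences with an unadjusted p under 0.05, Thra probe 1 in exercised WT versus WT turned to -0.055 with probes averaged per gene, where the other Thra probes enter the mean, and no other turned sign in these settings. Slide as a block turned 1, 5, 4, 0 and 2 of the 12 member differences in the 5 comparisons, none of them with an unadjusted p under 0.05. Dio2 in KO versus WT had an unadjusted p of 0.0608 by the methods' t-test. Replicate numbers, taken from the sample titles, were not used to pair the arrays in the main fit. Same-numbered arrays correlated at -0.19 to 0.24 over 18 pairs and the others at -0.26 to 0.24 over 36. These ranges overlap, which does not exclude a pairing. Probes not well above background carry no order.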
